A study of Mus musculus with 4 samples.

Results

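The genes described here are 9 members of interleukin-6 (IL-6) and interleukin-10 (IL-10) signalling in the mouse: the cytokine genes Il6 and Il10, the receptor genes Il6ra, Il6st, Il10ra and Il10rb, the transcription factor gene Stat3, the feedback inhibitor gene Socs3, and Bcl3. They were chosen by name, as the rows of the feature list whose gene symbol was one of these, and all 9 were found, each on 1 row, among 32285 genes. The libraries hold single-cell RNA-seq counts of unique molecular identifiers (UMIs, tags that mark single captured RNA molecules) from CD45+ cells, the immune cells, sorted from perfused mouse brains. Wild-type C57Bl/6 mice had either cardiac arrest (CA), caused with potassium chloride and followed by resuscitation, or sham surgery without arrest, and brains were taken at day 3. Young mice were 3 to 6 months old and aged mice 18 to 20 months. Each combination of age and surgery is 1 group with 1 library, 4 in all, made from the pooled cells of 3 mice. No group therefore has a replicate, no test between groups was run, and the intervals below are 95% intervals for counting error only.

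IL-6 binds its receptor chain, encoded by Il6ra, and the pair then engages gp130, the shared signalling chain encoded by Il6st. IL-10 binds a receptor made of the chains encoded by Il10ra and Il10rb. Both receptors act through Janus kinases on STAT3, which enters the nucleus and switches on genes that include Socs3, whose protein blocks gp130 signalling but leaves the IL-10 receptor largely unaffected. Bcl3 encodes a nuclear member of the IκB family that binds NF-κB p50 and p52 and can be induced by either cytokine. In the brain, microglia are the main resident immune cells that carry these receptors.

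Promoter sequence from RefSeq was at hand for 6 of the 9 genes (Il6, Il6ra, Il6st, Stat3, Socs3 and Bcl3), on build GRCm38.p6. The 3 stretches below belong to the 2 genes that were higher after CA at both ages in microglia, Socs3 and Bcl3, and to the cytokine gene Il6. They run 5′ to 3′ towards the gene and stop before the start of the RefSeq window or before an exon of the GENCODE annotation. The Socs3 stretch lies inside the GENCODE gene, whose most upstream transcript starts 681 bases upstream of the RefSeq start and has an intron here, while the start of the coding transcript lies 180 bases downstream of it. Capitals mark matches to a STAT element (TTCNNNGAA), an AP-1 element (TGANTCA) or the NF-κB consensus called kappa B, searched on both strands in the 250 bases before the start. The Socs3 stretch covers chr11:117969452-117969616 on the minus strand, the Bcl3 stretch chr7:19822771-19823005 on the minus strand, and the Il6 stretch chr5:30012864-30013113 on the plus strand.
Socs3: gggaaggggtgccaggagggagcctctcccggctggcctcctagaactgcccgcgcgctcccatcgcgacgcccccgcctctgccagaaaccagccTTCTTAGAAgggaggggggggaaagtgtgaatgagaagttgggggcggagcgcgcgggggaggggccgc
Bcl3: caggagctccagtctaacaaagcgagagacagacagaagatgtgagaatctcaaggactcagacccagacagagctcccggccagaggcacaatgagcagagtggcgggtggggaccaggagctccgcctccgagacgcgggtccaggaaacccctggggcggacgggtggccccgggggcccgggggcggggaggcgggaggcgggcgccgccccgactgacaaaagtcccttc
Il6: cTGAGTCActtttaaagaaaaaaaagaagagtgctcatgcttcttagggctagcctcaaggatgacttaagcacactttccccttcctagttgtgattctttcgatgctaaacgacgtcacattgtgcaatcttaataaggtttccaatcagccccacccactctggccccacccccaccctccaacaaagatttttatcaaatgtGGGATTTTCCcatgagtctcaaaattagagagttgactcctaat

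The Socs3 stretch held 1 STAT match, 154 to 146 bases before the RefSeq start and 334 to 326 bases before the GENCODE coding start, and no match to the other motifs. A STAT match of this kind stood in 7.02% of 32851 mouse promoter windows of the same length, an AP-1 match in 6.75% and a kappa B match in 3.9%. The Il6 stretch held 1 AP-1 match, 249 to 243 bases before the start, and 1 kappa B match, 44 to 35 bases before it. None of the 3 motifs was matched in the windows of Bcl3, Il6ra, Il6st and Stat3, which says only that these letters are not in those windows.

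Between 5888 and 10131 cells per library were kept, with median depths from 3130 UMIs per cell in aged sham to 10432.5 in aged CA. Each cell was placed in a class by marker genes, and the microglial class held 8258 cells of the young sham library and 9266 of its CA counterpart, and 6090 and 5063 of the aged pair, between 80.8% and 94.6% of the cells. The class is a range of a marker level rather than a type: 39 to 108 barcodes per library lay near its lower bound, and its median marker level was 235.2 UMIs per 10000 in sham and 142.0 after CA in the young, and 183.8 and 95.1 in the aged. The aged sham library stood apart, with the lowest depth, 959 barcodes that carried markers of several classes (95 to 298 elsewhere) and haemoglobin genes at 63.9 CPM in microglia (1.18 to 2.99 CPM elsewhere). CPM are the UMIs of a gene per 1000000 UMIs of the class. Immediate early genes, which also respond to cell dissociation, were at 1739 to 1757 CPM in the young microglia and at 2510 to 2715 CPM in the aged ones. The part of these differences in the values below was not tested. Pairs of libraries shared 15 to 32 cell barcodes.

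Microglia after CA had more RNA of Socs3, Bcl3 and, in aged mice, Stat3, and less of Il6 and of the IL-6 receptor genes Il6ra and Il6st, while the ratios of Il10ra were 1.01 and 1.04. A gene was called higher or lower when the CPM ratio was 2 or more in either direction and its mean over both libraries was at least 5 CPM. In young mice, 8 of the 9 genes passed that minimum, 2 were called higher (Socs3 and Bcl3) beside 6.24% of 10665 genes, and 1 lower (Il6) beside 3.22%. In aged mice, 8 passed it, 3 were called higher (Socs3, Bcl3 and Stat3) beside 6.06% of 10923 genes, and none lower beside 10.7%. The median log2 ratio of the measured members was -0.01 in young and -0.09 in aged mice, against -0.07 and 0.02 over all genes measured. Scaling by TMM factors, which are less affected by a few abundant genes, moved the young median of all genes from -0.07 to 0.10 and the young calls from 665 higher and 343 lower to 900 and 217. Il10 did not reach the minimum in any comparison, and Bcl3 reached it in young mice only through the CA library.

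**Figure D1:**
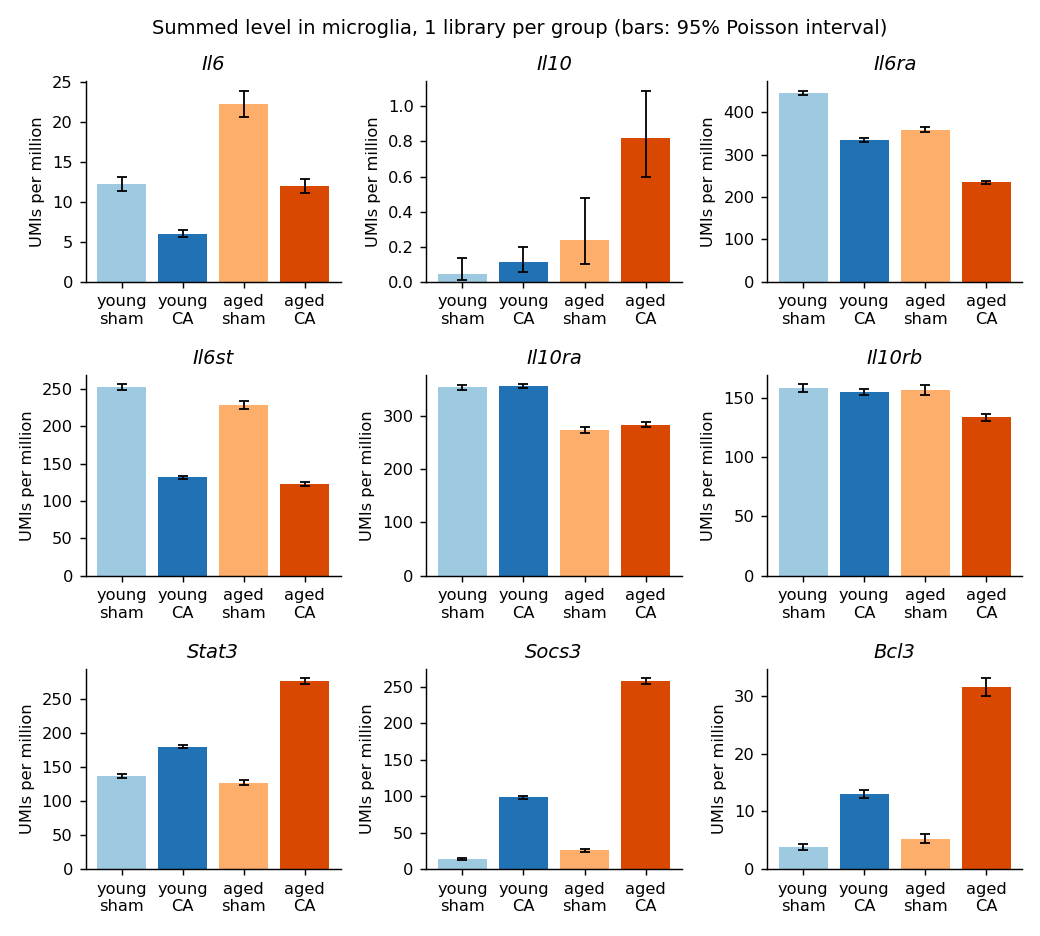
Summed level of each of the 9 genes in microglia, in CPM of the class, in the 4 libraries (1 per group); bars are levels and error bars 95% Poisson intervals. Socs3 was at 14.4 and 26.2 CPM in the sham libraries and at 98.7 and 257.3 CPM in the CA libraries, while Il10ra stayed between 273.7 and 355.7 CPM.

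Il6, which encodes the cytokine itself, lies on chromosome 5 (30013114 to 30019981, plus strand, GRCm38). Its level in microglia was 12.2 CPM in young sham mice and 6.01 after CA, and 22.2 CPM in aged sham mice and 12 after CA. Each CA library was below the sham library of its age, and each aged library was above the young library of the same treatment. The ratio of CA to sham was 0.495 (0.444 to 0.551) in young mice, just past 2-fold, and 0.539 (0.484 to 0.599) in aged mice, just short of it. Which age was called depended on the processing: with TMM scaling the young ratio was 0.555, and with cells thinned to 2000 UMIs the aged ratio was 0.376. The ratio of aged to young was 1.83 (1.65 to 2.02) in sham and 1.99 (1.78 to 2.23) after CA, both short of 2-fold.

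In unthinned counts, the Il6 UMIs were spread differently over cells after CA in aged mice. The median depth of aged microglia was 3129 UMIs in sham and 10432 after CA, and that of young microglia 5972.5 and 9436. A deeper cell can hold more UMIs at the same level, and the part of depth in the counts below was not tested. In young sham, 622 of 8258 microglia held an Il6 UMI and no cell held more than 6, and in aged sham the figures were 576 of 6090 cells and again 6. In young CA, 461 of 9266 microglia held one, with 19 UMIs in the highest cell. In aged CA, 343 of 5063 held one, 22 cells held 5 or more, 6 held 10 or more, and the highest held 30. The 10 highest cells carried 17.9% of all Il6 UMIs of that class in aged CA, 9.27% in young CA and 5.57% in each sham library. Microglia held 93.2% to 97.4% of all Il6 UMIs of a library, and barcodes with markers of several classes 10 to 37 UMIs. Elsewhere the counts were few, with 12 UMIs in the monocytes of aged CA (6.36 CPM), 9 in those of young CA (1.62 CPM), 20 in aged CA barcodes that met no class, and 0 to 3 UMIs in any other class, except for 1 barcode of the young sham library gated as a mast cell or basophil, which alone held 9. Neurons held 1 Il6 UMI in young CA, 1 in aged sham and none in the other libraries.

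Il10, on chromosome 1 (131019845 to 131024974, plus strand), encodes the anti-inflammatory cytokine and was close to the detection limit. Among the young, microglia held 3 UMIs in sham and 11 after CA (0.0473 and 0.112 CPM), and among the aged 8 and 45 (0.241 and 0.818 CPM). Of the 8 UMIs in aged sham, 6 lay in 1 cell, whereas the 45 of aged CA lay in 32 cells. The ratio of CA to sham was 3.39 (1.58 to 8.33) in aged mice, and 2.36 (0.624 to 13.2) in young mice, an interval that includes 1. Over the alternatives the aged ratio ran from 2.6 to 10.5 and the young one from 0.429 to 6.45, with a sign change of the young log2 ratio in thinned cells (-1.22) and with the mean over cells (-0.30). After CA, the ratio of aged to young was 7.33 (3.73 to 15.7). Of the 7 classes compared in aged CA, the level was highest in B or plasma cells, with 7 UMIs in 41 cells (20.7 CPM, 8.34 to 42.7), followed by T cells with 5 UMIs in 110 cells (5.11 CPM, 1.66 to 11.9). No neuron of any library held an Il10 UMI, which allows levels of up to 0.644 to 1.26 CPM (3 counts of each total).

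The receptor chain genes of IL-6 were lower after CA at both ages in microglia, though short of 2-fold. Il6ra, which encodes the ligand-binding chain and lies on chromosome 3 (89864059 to 89913196, minus strand), was at 446.1 CPM in sham and 334.6 after CA in young microglia, and at 359.1 and 234.7 CPM in aged ones. The CA to sham ratio was 0.75 (0.738 to 0.762) in young and 0.654 (0.637 to 0.670) in aged mice. Il6st, which encodes gp130 and lies on chromosome 13 (112464070 to 112510086, plus strand), was at 252.3 CPM in sham and 131.5 after CA in the young, and at 228.4 and 122.8 CPM in the aged. Its ratio was 0.521 (0.509 to 0.533) in young and 0.538 (0.520 to 0.556) in aged mice, and the intervals overlapped. For both genes the CA library was the lower one within each age. Over 9 alternative ways of processing, the ratios ran more widely than these intervals. Those of Il6ra ran from 0.732 to 0.859 in young and from 0.616 to 0.801 in aged mice. Those of Il6st ran from 0.514 to 0.586 in young and from 0.511 to 0.62 in aged mice.

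Of the 7 classes compared, microglia had the highest level of both IL-6 receptor genes in each library, except for Il6ra in aged CA. There, border-associated macrophages, which line vessels and meninges, stood at 294.7 CPM, 1.26-fold above microglia (1.06 to 1.47). In these macrophages Il6ra differed little between libraries (254.7 to 294.7 CPM), and the CA to sham ratios, 1.07 (0.872 to 1.31) in young and 1.16 (0.903 to 1.48) in aged mice, had intervals that include 1. In monocytes or monocyte-derived macrophages, Il6ra was at 252.2 CPM in sham and 136.7 after CA in the young, and at 217.0 and 129.9 CPM in the aged, with ratios of 0.542 (0.442 to 0.671) and 0.599 (0.457 to 0.792). Only 21 and 15 such cells were found in young and aged sham, against 285 and 76 after CA, and different populations in the class cannot be told apart from changed levels. Il6st in microglia was 1.85 to 3.52 times the next class in the 4 libraries, each with an interval above 1. In neutrophils Il6st gave 0 to 3 UMIs per library.

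The IL-10 receptor genes had CA to sham ratios nearer to 1 in microglia. Il10ra, which encodes the ligand-binding chain and lies on chromosome 9 (45253837 to 45269149, minus strand), was at 353.7 CPM in sham and 355.7 after CA in young microglia, and at 273.7 and 283.5 CPM in aged ones. The CA to sham ratio was 1.01 (0.989 to 1.02) in young and 1.04 (1.01 to 1.06) in aged mice. Its direction changed in 1 setting at each age, cells of at least 5000 UMIs, an alternative chosen after seeing the data. Over 9 alternatives, that one included, the ratio ran from 0.973 to 1.16 in young and from 0.986 to 1.22 in aged mice. Both aged libraries were below both young ones, with an aged to young ratio of 0.774 (0.755 to 0.793) in sham and 0.797 (0.782 to 0.812) after CA. Microglia had the highest Il10ra level of the 7 classes compared in every library, 1.63 to 1.76 times the next class.

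Il10rb, on chromosome 16 (91406164 to 91425834, plus strand), encodes the signalling chain that the receptors of IL-22 and of interferon lambda also use. In microglia it was at 158.3 CPM in sham and 155.0 after CA in the young, and at 156.7 and 133.5 CPM in the aged. Aged CA was the low library, with a ratio to aged sham of 0.852 (0.822 to 0.883), while the young ratio of 0.979 (0.955 to 1.0) turned to 1.10 with TMM factors. Border-associated macrophages held the most in each library, though beside monocytes the young CA interval included 1 (1.09, 0.911 to 1.31). There the level was 373.2 CPM in sham and 219.8 after CA in the young, and 319.4 and 169.8 CPM in the aged. Both sham libraries were above both CA libraries, with ratios of 0.589 (0.479 to 0.721) in young and 0.531 (0.403 to 0.697) in aged mice. These values rest on 46 to 91 cells per library. In monocytes the order was the opposite in young mice, 57.1 CPM in sham and 200.7 after CA (ratio 3.52, 2.35 to 5.51), while in aged mice the levels were 77.5 and 108.2 CPM (1.40, 0.919 to 2.21).

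**Figure D2:**
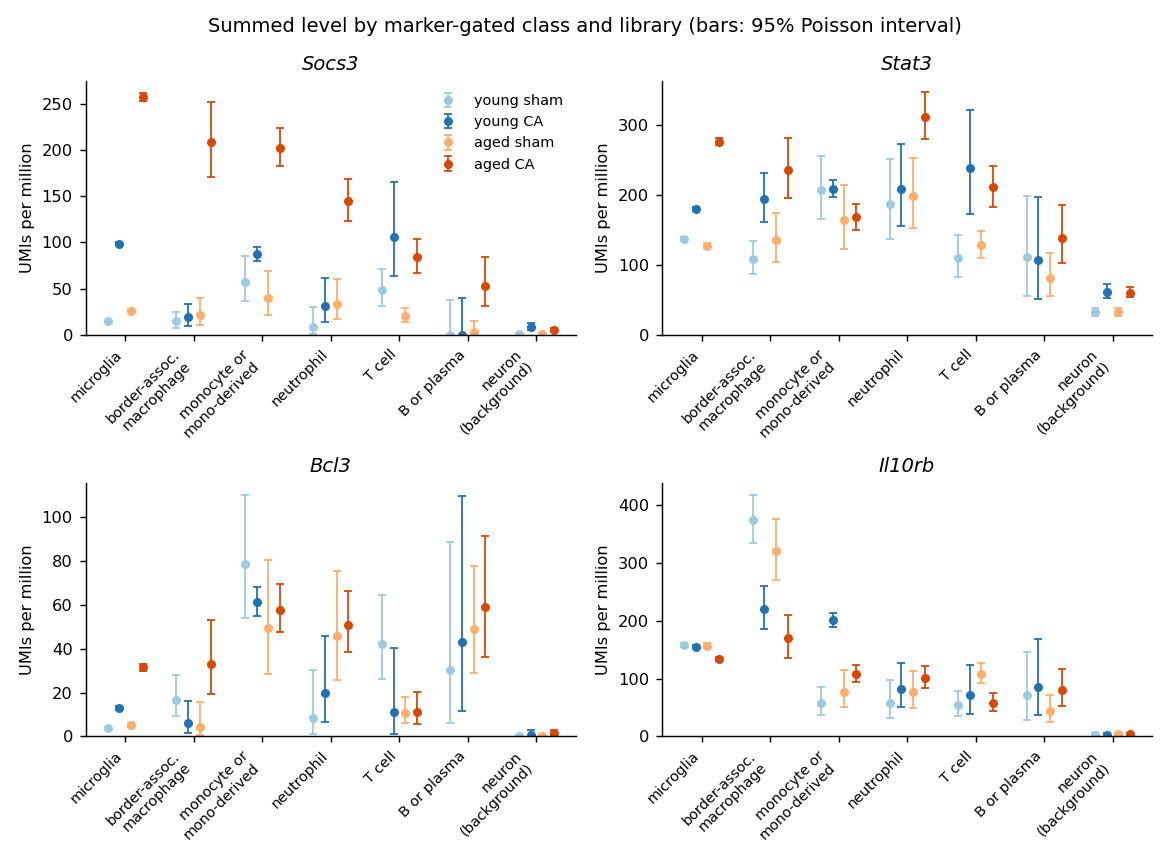
Summed level of Socs3, Stat3, Bcl3 and Il10rb in 7 marker-gated classes, in CPM of the class, by library; points are levels and error bars 95% Poisson intervals, wide where a class holds few cells, and neurons are shown for comparison. Il10rb in border-associated macrophages was at 373.2 and 319.4 CPM in sham and at 219.8 and 169.8 CPM after CA, and Socs3 in aged CA was above 50 CPM in every class but neurons.

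Stat3 encodes the transcription factor on which both receptors converge, on chromosome 11 (100885098 to 100939540, minus strand). In microglia it was at 137.3 CPM in sham and 180.5 after CA in the young, and at 127.4 and 276.7 CPM in the aged. The CA libraries were the 2 highest, and aged CA was above young CA although aged sham was the lowest of the 4. The ratio of CA to sham was 1.31 (1.28 to 1.35) in young and 2.17 (2.10 to 2.25) in aged mice, and the ratio of aged to young was 0.928 (0.894 to 0.963) in sham and 1.53 (1.5 to 1.57) after CA. After each cell was thinned to 2000 UMIs, which removes differences in depth, a Stat3 UMI was found in 22.9% of sham and 29.4% of CA microglia of the young, and in 20.6% and 40.3% of the aged. In neurons these shares were 3.96% (1.09 to 9.83) and 5.88% (1.94 to 13.2) in the young and 7.58% (3.69 to 13.5) and 12.1% (7.24 to 18.7) in the aged, with intervals that overlapped. Summed over neurons, Stat3 was at 32.3 CPM in sham and 61.8 after CA in the young, and at 32.7 and 60.3 CPM in the aged. Free RNA and RNA of the neurons themselves cannot be told apart in these values.

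The class with the most Stat3 was monocytes in young sham, T cells in young CA and neutrophils in both aged libraries, and it exceeded the next class beyond counting error in aged CA alone. In monocytes Stat3 was at 207.0 CPM in sham and 208.5 after CA in the young, and at 164.3 and 168.1 CPM in the aged, with CA to sham ratios of 1.01 (0.810 to 1.27) and 1.02 (0.763 to 1.40). In border-associated macrophages the ratios were 1.79 (1.35 to 2.37) in young and 1.74 (1.27 to 2.39) in aged mice, and in T cells 2.17 (1.42 to 3.29) and 1.64 (1.34 to 2.02). The neutrophils of aged CA stood at 312.4 CPM, 1.13-fold above microglia (1.01 to 1.26). Stat3 overlaps Stat5a on the opposite strand, Il6ra overlaps Gm42809 and Bcl3 overlaps Gm16175 and Gm16174. The strand setting of the counting was not given in the sources used here, so reads of overlapping genes cannot be told apart.

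Socs3, the feedback inhibitor on chromosome 11 (117966079 to 117970047, minus strand), had the largest CA to sham ratio of the 8 measured members at both ages. Its level in microglia was 14.4 CPM in sham and 98.7 after CA in the young, and 26.2 and 257.3 CPM in the aged. Both CA libraries were far above both sham libraries, and within each treatment the aged library was the higher one. The ratio of CA to sham was 6.86 (6.41 to 7.35) in young and 9.84 (9.18 to 10.5) in aged mice. The ratio of aged to young was 1.82 (1.65 to 2.0) in sham and 2.61 (2.54 to 2.67) after CA. Over the 9 alternatives, the young ratio ranged from 5.78 to 7.67 and the aged ratio from 9.13 to 10.5.

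**Figure D3:**
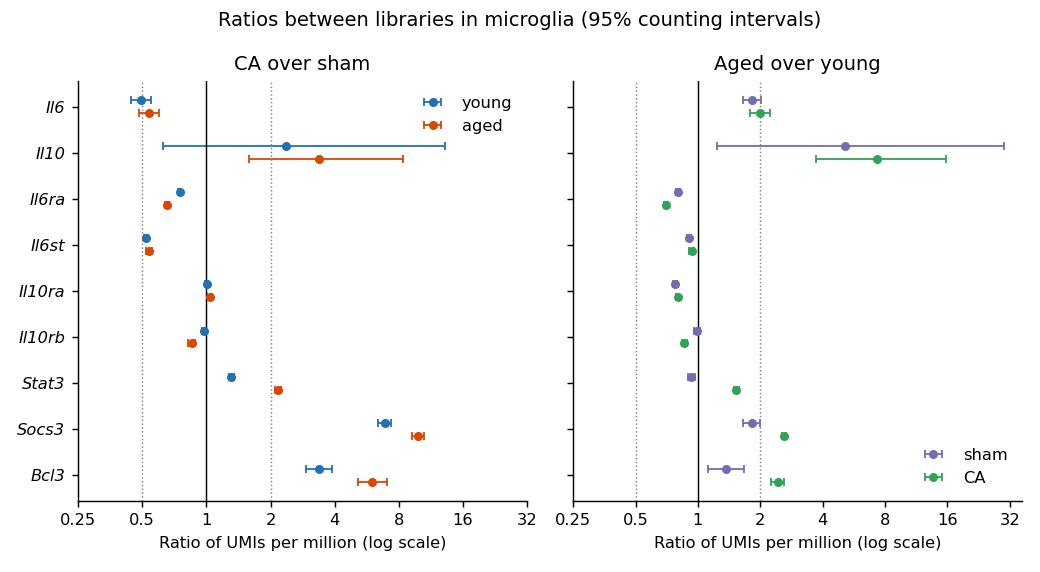
Ratios of CPM in microglia for the 9 genes, CA over sham at each age on the left and aged over young within each treatment on the right, on a log axis with 95% counting intervals; dotted lines mark 2-fold. Socs3 was at 6.86 and 9.84 and Bcl3 at 3.38 and 6.0 for CA over sham, Il6st at 0.521 and 0.538, and Il10ra at 1.01 and 1.04.

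The higher Socs3 level went with more positive cells and with more UMIs per positive cell. After thinning to 2000 UMIs, 2.68% of young sham microglia (2.32 to 3.07) held a Socs3 UMI against 12.7% after CA (12 to 13.5), and 4.28% of aged sham microglia (3.67 to 4.96) against 33.3% after CA (32 to 34.7). Without thinning the shares were 8.96%, 32.4%, 10.9% and 69.1%, and the thinned set left out 829, 584, 2146 and 250 shallower microglia. Cells with 2 or more thinned Socs3 UMIs made up 0.162% and 0.254% of microglia in the sham libraries, 2.89% in young CA and 10.3% in aged CA. Neurons, taken for comparison, held a thinned Socs3 UMI in 0.99% of cells in sham and 1.18% after CA in the young, and in 0% and 1.43% in the aged, at median depths of 20176 to 37738 UMIs. Each share in microglia was above that of the neurons of its library, though in young sham the interval of the neurons reached 5.39%, and the 0% of aged sham allows up to 2.76%. Unthinned, the Socs3 level of neurons was also higher after CA, at 8.40 against 0.957 CPM in young and 5.15 against 0.519 CPM in aged mice.

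**Figure D4:**
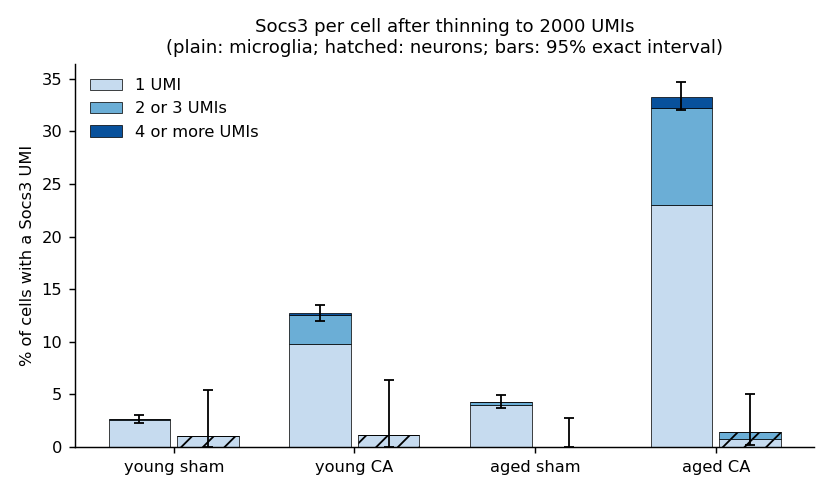
Share of microglia (plain) and of neurons (hatched) with a Socs3 UMI after each cell was thinned to 2000 UMIs, in percent of cells, divided by the number of UMIs in the cell; error bars are 95% exact binomial intervals of the total. Microglia stood at 2.68% and 4.28% in sham and at 12.7% and 33.3% after CA, and neurons at or below 1.43%.

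Socs3 was also higher after CA in other immune classes of the aged libraries. In aged mice the CA to sham ratio was 9.67 (5.06 to 20.8) in border-associated macrophages, 5.02 (2.90 to 9.52) in monocytes, 4.29 (2.33 to 8.77) in neutrophils and 4.16 (2.68 to 6.64) in T cells. In young mice the border-associated macrophages stood at 14.4 CPM in sham and 19.0 after CA, a ratio of 1.32 (0.543 to 3.22), and the monocytes at 57.1 and 87.3 CPM, a ratio of 1.53 (1.02 to 2.41), while T cells had a ratio of 2.20 (1.14 to 4.18) and neutrophils one of 3.77 (0.753 to 36.5). The difference between the ages in these ratios was not tested. In aged CA the order of the 7 classes compared was microglia (257.3 CPM), border-associated macrophages (208.8), monocytes (202.5), neutrophils (144.3), T cells (83.7), B or plasma cells (53.3) and neurons (5.15). Border-associated macrophages and monocytes, and T and B cells, did not differ from each other beyond counting error in that order. In young sham the order was another, with monocytes (57.1 CPM) and T cells (48.1) above microglia.

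Monocyte marker genes inside the microglial class were mostly higher after CA in young mice and went in both directions in aged mice. Barcodes with 4 markers of another list were barred from this class. The levels of monocyte and neutrophil markers in it are therefore limited by the gate. Of the 10 monocyte genes, 8 were higher and 2 lower after CA in young mice, and 4 were higher and 6 lower in aged mice. None was at 0 in any library, and their summed level in microglia was 21.7 CPM in sham and 239.1 after CA in the young, and 49.8 and 77.5 CPM in the aged. Fn1, the fibronectin gene, alone gave 169.3 CPM in young CA and 48.4 in aged CA, against 0.473 and 0.573 in the sham libraries. Without Fn1 the sum was 21.2 CPM in sham and 69.9 after CA in the young, and 49.3 and 29.1 CPM in the aged. Plac8 went from 2.57 to 25.5 CPM and Ms4a4c from 2.35 to 26.4 CPM between the young libraries, and they stood at 5.49 and 1.25 CPM and at 5.91 and 11 CPM in the aged ones. Ccr2, which encodes a chemokine receptor and is 1 of the 10 listed markers, was lower after CA, at 2.85 against 9.77 CPM in young and 0.691 against 11.2 CPM in aged mice. The 12 neutrophil markers summed to lower levels after CA (29.9 and 13.8 CPM in the young, 96.2 and 43.8 in the aged). The part of these genes in the Socs3 difference was not tested.

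Bcl3, on chromosome 7 (19808462 to 19822770, minus strand), followed the same order of libraries in microglia as Socs3. Its level was 3.84 CPM in sham and 13 after CA in the young, and 5.25 and 31.5 CPM in the aged. The ratio of CA to sham was 3.38 (2.94 to 3.89) in young and 6.0 (5.13 to 7.05) in aged mice. Monocytes held 78.5 CPM in sham and 61.5 after CA in the young, and 49.6 and 57.8 CPM in the aged, with CA to sham ratios of 0.783 (0.547 to 1.16) and 1.16 (0.686 to 2.11). In border-associated macrophages Bcl3 was at 16.7 CPM in sham and 6.32 after CA in the young, a ratio of 0.378 (0.0905 to 1.2), and at 4.32 and 33.2 CPM in the aged, a ratio of 7.69 (1.82 to 68.6) that rests on 2 and 17 UMIs. Of the 7 classes compared, monocytes were the highest in every library but aged CA, where B or plasma cells stood at 59.2 CPM. Monocytes and B or plasma cells did not differ from each other beyond counting error in young CA, aged sham and aged CA. Neurons held 0 to 7 Bcl3 UMIs per library.

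Between the ages, none of the 7 measured members was called in sham, beside 4.42% of 10855 genes called higher and 0.184% lower in the aged library. After CA, 2 of 8 were called higher in the aged library, Socs3 (2.61-fold) and Bcl3 (2.43-fold, 2.26 to 2.61), beside 2.49% of 10591 genes, and none lower beside 3.56%. Il6 stood just outside at 1.99-fold. These comparisons share libraries with the CA comparisons, and the young and aged libraries also differed in depth and in immediate early genes as given above.

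Within the CA libraries, Bcl3 was seen more often in microglia with a Socs3 UMI. In a second draw of 2000 UMIs per cell, 3.59% of 1085 young CA microglia with Socs3 held a Bcl3 UMI (2.57 to 4.88), against 1.87% of 7597 without (1.58 to 2.20). In aged CA the shares were 6.98% of 1647 (5.80 to 8.32) and 4.71% of 3166 (3.99 to 5.50). Stat3 was seen in 36.5% of young CA microglia with Socs3 and in 27.3% without, and in aged CA in 43.2% and 40.5%, where the intervals overlapped. Il10ra went the other way in young CA, with 44.1% of cells with Socs3 (41.1 to 47.1) and 53.9% without (52.7 to 55.0), and was alike in aged CA, at 44.2% and 44.3%. So did Il6ra, at 45.8% (42.8 to 48.8) and 50.6% (49.4 to 51.7) in young CA and 37.9% and 38.3% in aged CA. Il6 was seen in 2.25% of aged CA microglia with Socs3 (1.59 to 3.08) and 1.2% without (0.851 to 1.64). In young CA the Il6 shares were 0.645% (0.26 to 1.32) and 1.08% (0.859 to 1.34). At both ages the Il6 intervals overlapped. The cells of a library are not replicates, and these shares describe 1 library each.

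In the same draw, microglia with at least 2 Socs3 UMIs were compared with those that had none. The 5 genes with the largest ratio after 20 CPM was added to both levels were listed, a rule chosen after values were seen. In young CA, the 228 such cells had Saa3, which encodes an acute-phase protein, at 179.8 CPM against 9.81 in the 7597 cells without Socs3 (18.3-fold, 13.8 to 24.2), and Fn1 at 552.6 against 78.8 CPM (7.01-fold, 6.10 to 8.04). Slc39a14, a zinc and iron transporter gene that IL-6 induces in liver, Ier3 and Cd244a followed at 5.39-fold, 4.62-fold and 3.81-fold. In aged CA, the 534 such cells were compared with the 3166 without: Edn1 stood at 3.68-fold (2.52 to 5.32), Acod1 and Ch25h at 2.59-fold each, Ccl3 at 2.25-fold and Ier3 at 2.17-fold. The cut at 2 UMIs took a larger part of the aged CA microglia than of the young CA ones. The sizes of the ratios in young and aged CA therefore cannot be compared. The monocyte list was 4.2 times as high in the Socs3 cells of young CA (611.8 against 145.7 CPM). In those of aged CA it was 1.1 times as high (69.3 against 63.2 CPM). Of its 10 genes, 4 were higher and 4 at 0 in the Socs3 cells of each library. These cells were few and thinned, so a gene of low level can be at 0 there without being absent. F10, for example, was at 0.355 CPM in all microglia of young CA and at 0.364 CPM in those of aged CA. Without Fn1 the list was at 59.2 against 66.9 CPM in young CA and at 22.5 against 26.1 CPM in aged CA. The gate limits the levels of this list in all these cells. The Socs3 cells of young CA were also deeper, with a median of 13650 UMIs before thinning against 9763, and those of aged CA had 11411 against 10544.

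Of the wider pathway, genes listed as IL-10 responses of macrophages and as STAT3 targets had the highest list medians after CA at both ages. These lists were drawn up with earlier results of these data known and overlap each other. Of the 16 IL-10 response genes, 11 were measured in young mice, 6 were called higher and none lower, with a median log2 ratio of 1.18, beside 6.24% and 3.22% of all genes measured. In aged mice 12 were measured, 8 were called higher and none lower, beside 6.06% and 10.7%, and the median was 1.45. The list holds Socs3 and Bcl3: without them, 4 of 9 were higher in young mice with a median of 0.71, and 6 of 10 in aged mice with a median of 1.21. Of the 20 STAT3 targets, 7 of 16 measured were called higher in young mice (median 0.83) and 5 of 14 in aged mice (median 0.60), and none lower, beside the same shares of all genes. Some of these genes reached the minimum only through their CA library, which favours a call: Bcl3 and Nfil3 of the 6 IL-10 responses and Birc5 and Saa3 of the 7 STAT3 targets in young mice, and Ddit4, Marco and Nfil3 of the 8 IL-10 responses in aged mice. These counts and medians therefore describe the lists only. Immediate early genes as a list had 6 of 15 higher in young mice (median 0.48), and in aged mice 5 of 16 higher and 3 lower (median -0.15).

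The receptor and signalling lists mostly stayed within 2-fold, and their counts stand beside the shares of all genes given above (6.24% higher and 3.22% lower in young mice, 6.06% and 10.7% in aged mice). Of the IL-6 family receptors and shedding enzymes, none of 7 measured genes was called in young mice, and 2 of 7 were called higher in aged mice. Of the IL-10 family receptors, 1 of 3 was called higher at each age (Il20rb, in aged mice past the minimum only through the CA library), and of the Janus kinases and STATs 2 of 10. In aged mice the member Stat3 was 1 of these 2. Among 11 measured feedback inhibitors and phosphatases in young mice and 12 in aged mice, 1 was called higher at each age, Socs3 itself. Of the 10 genes of Bcl3 and NF-κB subunits and inhibitors, 2 were called higher at each age, Bcl3 among them, with medians of -0.06 in young and 0.49 in aged mice. Without Bcl3, 1 of 9 was called higher at each age, with medians of -0.16 and 0.40. None of these lists held a gene called lower, and none of the 7 IL-10 family ligands reached the minimum.

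**Figure D5:**
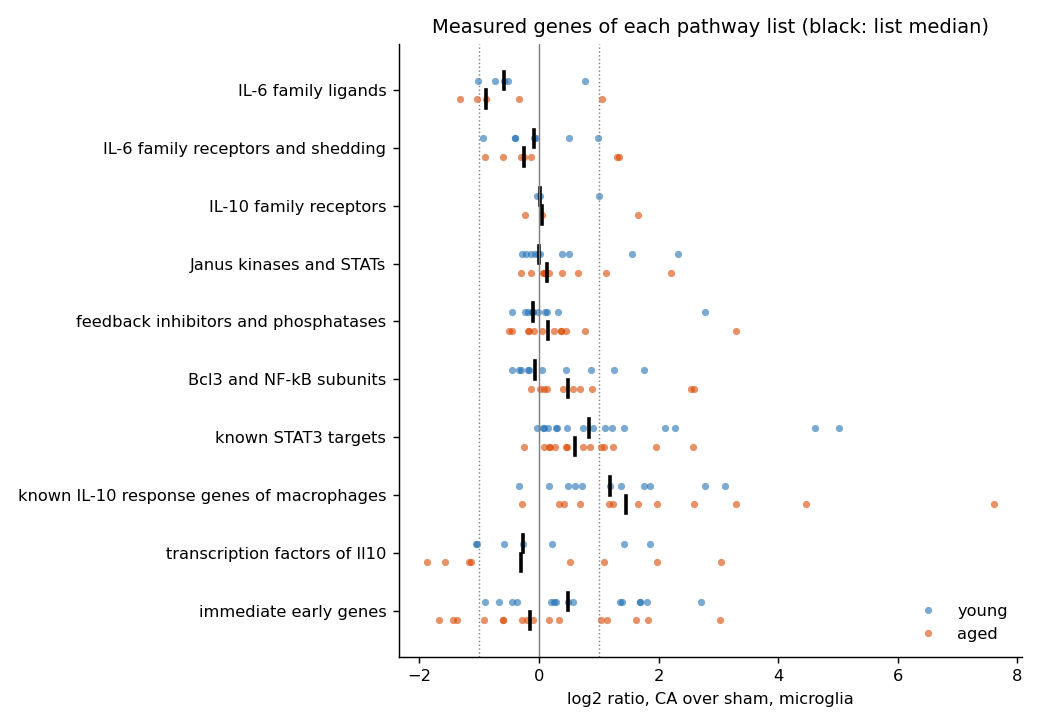
Each point is the log2 ratio of CA over sham in microglia for 1 measured gene of a pathway list, young above and aged below in each row, and black bars are list medians; dotted lines mark 2-fold. The medians of the IL-10 response list were 1.18 and 1.45 and those of the STAT3 targets 0.83 and 0.60, the members among them included, while the other lists plotted had medians between -0.89 and 0.49.

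Several IL-10 response genes and STAT3 targets were past 2-fold at both ages. Ddit4, an inhibitor of mTORC1 signalling, was at 14.5 CPM in sham and 124.7 after CA in the young, and at 4.22 and 93.7 CPM in the aged, ratios of 8.61 (8.05 to 9.22) and 22.2 (18.7 to 26.4). Nfil3, a transcription factor gene, rose 3.63-fold and 3.94-fold in young and aged mice, and Hmox1, which encodes haem oxygenase 1, rose 2.27-fold and 3.15-fold. Of the STAT3 targets, the kinase gene Pim1 rose 4.87-fold and 6.0-fold, Fgl2 4.33-fold and 3.86-fold, the transcription factor gene Cebpb 2.67-fold and 2.11-fold, and the repressor gene Bcl6 2.17-fold and 2.35-fold. Stat2, which acts in interferon signalling, rose 5.0-fold and 4.59-fold, Nfkbia, which encodes the NF-κB inhibitor IκBα, 2.38-fold and 5.82-fold, and the IL-20 receptor chain gene Il20rb 2.0-fold and 3.16-fold.

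Other genes were called at 1 age. In young mice, Saa3 was at 0.567 CPM in sham and 18.4 after CA (32.4-fold, 23.3 to 46.4), while in aged mice it was at 0.573 and 9.23 CPM (16.1-fold, 10.2 to 27), short of the minimum on the mean. Birc5, a gene of dividing cells, went from 1.35 to 33.0 CPM between the young libraries (24.4-fold, 19.7 to 30.6), and close to 2 CPM in both aged libraries, so that the aged CA level was 0.0605 times the young one (0.0496 to 0.0732). Marco, a scavenger receptor gene, had 649 UMIs after CA and 2 in sham in aged mice (ratio 195.5, 53.9 to 1618), and 16 and 0 in young mice. The differences between the ages in these ratios were not tested.

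Regulators of Il10 itself moved in both directions, with 2 of 7 measured genes called higher and 2 lower in young mice, and 3 of 8 higher and 4 lower in aged mice. Over all genes measured, 6.24% and 3.22% were called higher and lower in young mice, and 6.06% and 10.7% in aged mice. Nfil3 at both ages, and Ahr in aged mice, reached the minimum only through the CA library. Maf, which encodes a transcription factor that drives Il10 in macrophages, was at 915.3 CPM in sham and 439.2 after CA in the young, and at 916.9 and 251.6 CPM in the aged, ratios of 0.480 (0.474 to 0.486) and 0.274 (0.269 to 0.280). Ahr, the aryl hydrocarbon receptor gene, was at 1.30 CPM in aged sham and 10.8 in aged CA (8.31-fold, 6.09 to 11.6), and at 0.709 and 2.65 CPM in young mice, below the minimum. Of the IL-6 family ligands, 5 of 10 were measured. In young mice 1 of them was called lower, Il6, and in aged mice 1 was called higher and 2 lower. Ebi3, a subunit of IL-27, fell to 0.400 times the sham level (0.361 to 0.444) in aged mice. In aged against young sham, Nfkbiz, an atypical IκB gene, was 2.51-fold higher (2.35 to 2.68), Myc 2.04-fold higher (1.85 to 2.25), and Ddit4 was at 0.292 times the young level (0.242 to 0.349). After CA, Nfkbiz was 2.53-fold higher (2.43 to 2.63) and Ahr 4.07-fold higher (3.51 to 4.73) in the aged library.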

How the data were processed

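Per the submitters' processing notes, the authors made the UMI counts with Cell Ranger 7.1.0 on build mm10. The deposited matrices hold whole counts per gene and barcode. The sources used here do not name the annotation, the strand and intron settings or the cell calling. The 4 matrices hold 44277472 to 115892682 UMIs. Barcodes below 500 UMIs or 200 genes, or above 10% mitochondrial UMIs, were removed. A cell was gated as microglial when the 12 microglial markers reached 25 per 10000 UMIs and no other list of the 16 had 4 markers. Other classes needed 3 markers (border-associated macrophages 5, at a level of at least 20), and barcodes that met 2 lists about equally were called mixed. The gate thresholds, the minimum of 5 CPM and the carrier comparison were set after levels were seen, and the members and gene lists were chosen with earlier results of these data known. The UMIs of each class were added up within a library and divided by their total. Counts carry exact Poisson intervals, ratios exact conditional binomial intervals and shares Clopper-Pearson intervals, all at 95%. UMIs of 1 cell are not independent, so the intervals cover counting error only. With 1 library per group no p-value was computed. Doublets were not removed in the main values: the automatic threshold of Scrublet (scanpy 1.11.5) marked 0 barcodes in each library, so the highest scores, at 0.8% per 1000 cells, were removed as an alternative. TMM factors came from edgeR 4.0.16. Other computing used Python 3.11.15, numpy 2.4.6 and scipy 1.17.1, and the fold rule, intervals and thinning were run on simulated data. The simulated counts were independent Poisson draws, as the intervals assume. They check the code only, since they hold no UMIs clustered in cells and no differences between mice. Beside the members, the named genes of the pathway lists are, for each comparison, the 3 highest and the 3 lowest past 2-fold, and those past 2-fold at both ages. A gene that met this rule is not reported here. For Socs3, Bcl3 and Il10ra the 3 most correlated genes are named as well. Gene positions are from GENCODE M21 (GRCm38), and promoter windows from RefSeq on GRCm38.p6.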

Additional observations from a re-analysis of the deposited data

Results flagged for a closer look

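Barcodes removed for more than 10% mitochondrial UMIs (308 in sham and 663 after CA in the young, 162 and 906 in the aged) enter no comparison above, and several members were higher in those of the CA libraries than in those of the sham libraries. Socs3 was at 2.5 CPM (1 UMI) in sham and 80.3 CPM after CA in the young, a ratio of 32.1 (5.68 to 1275), and at 42.4 and 167.5 CPM in the aged, a ratio of 3.96 (2.24 to 7.71). Stat3 had ratios of 1.91 (1.28 to 2.95) in young and 2.42 (1.67 to 3.65) in aged mice, and Bcl3 one of 7.22 (1.26 to 289.0) in aged mice, with 1 UMI in aged sham. Il10ra had ratios of 1.93 (1.49 to 2.52) and 2.09 (1.54 to 2.91), unlike the ratios near 1 in kept microglia, and Il6ra one of 1.63 (1.27 to 2.13) in young mice. These barcodes were not assigned to classes, so different mixtures of cells and different levels cannot be told apart.

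Over all kept cells, Il10rb moved in opposite directions at the ages, at 1.04 times the sham level in young and 0.889 times in aged mice, with intervals on either side of 1. The difference between the ages was not tested. The mixture of classes also differed between these libraries, and its part was not tested.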

How the results depend on the processing

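Socs3 and Bcl3 were called higher after CA at both ages, and in aged against young CA, under 9 alternatives and with cells of at least 5000 UMIs, an alternative chosen after seeing the data. Stat3 was called higher after CA in aged mice under the same alternatives. Its CA to sham ratio ran from 1.25 to 1.47 in young and from 2.11 to 2.41 in aged mice. That of Bcl3 ran from 2.89 to 3.78 in young and from 5.66 to 6.96 in aged mice. Of 324 log2 ratios of members under the alternatives, 68 moved outside the counting interval of the main value and 2, both of Il10, were reversed. The call of Il6 as lower changed: in young mice 0 members were called lower with TMM factors, with the mean over cells and with the highest doublet scores removed, and in aged mice 1 was called lower (Il6) with the stricter gate, the mean over cells and thinned cells. Without a minimum for members, Il10 was called higher in each of the 4 comparisons. The members called higher were then 3 in young CA against sham and 4 in aged CA against sham. They were 1 in aged against young sham (Il10 alone) and 3 in aged against young CA. No share of all genes was computed without a minimum. The log2 ratio of Il10 changed sign to -0.11 in aged against young sham with the mean over cells, and to -1.22 for young CA against sham in thinned cells. TMM factors moved the median log2 ratio of all genes in young CA against sham from -0.07 to 0.10, and the calls from 665 higher and 343 lower to 900 and 217. With a minimum of 1 CPM, more genes were tested and the calls over all genes were 736 lower in young CA against sham, 1010 higher and 2338 lower in aged CA against sham, 1339 higher and 69 lower in aged against young sham, and 617 higher and 671 lower in aged against young CA, and 8 STAT3 targets were higher in aged CA. In aged against young sham, the mean over cells gave 911 higher and 63 lower, thinned cells 56 lower, and cells of at least 5000 UMIs 168 higher, against 480 and 20, and the cause was not tested. Thinning to 1000 UMIs gave Socs3 shares of 1.19% in sham and 7.09% after CA in the young and 2.84% and 19.5% in the aged, and no thinning gave 8.96%, 32.4%, 10.9% and 69.1% in that order, since a share depends on depth. With TMM factors, Il10rb in young CA against sham went from -0.03 to 0.14 on the log2 scale. Il6 was called higher in aged against young CA when barcodes of no class were counted as microglia and with cells of at least 5000 UMIs. Leaving out haemoglobin-rich barcodes moved no member level in microglia, and using all barcodes moved none over all cells, beyond counting error (72 levels). Little change was possible in either check. Only aged sham held haemoglobin-rich microglia, 8 of 6090, so the microglial levels of the other libraries could not change. Most of all barcodes were the kept cells themselves. No paired analysis was possible because each group has 1 library and no more than 1 replicate number could be shared. A fit of surgery with age as a term was not run. Depth limits Il10 in all classes, Il6 outside microglia, monocytes included, and Bcl3 outside microglia and monocytes.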

Other observations

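Microglia with an Il6 UMI in aged CA were compared with the others. After thinning to 2000 UMIs, 75 microglia held an Il6 UMI and 4738 did not. The 5 genes with the largest ratio after 20 CPM was added to both levels, a rule chosen after values were seen, were Acod1, which encodes the enzyme that makes itaconate, at 520.0 against 41.6 CPM (12.5-fold, 9.68 to 16), Ch25h, which encodes cholesterol 25-hydroxylase, at 326.7 against 41.9 CPM (7.80-fold, 5.67 to 10.5), and the chemokine genes Ccl7 (6.12-fold, 4.72 to 7.84), Ccl2 (5.23-fold, 4.65 to 5.86) and Ccl4 (5.17-fold, 4.80 to 5.55). Their median depth before thinning was 13415 UMIs against 10716. In young CA, the 89 microglia with an Il6 UMI had Cxcl10 at 219.1 against 50.4 CPM (4.34-fold, 3.07 to 5.99) and Ccl12 at 1022 against 386.8 CPM (2.64-fold, 2.27 to 3.06). The other 3 genes of that list rest on 7 to 11 UMIs.

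Microglia with a Bcl3 UMI had other leading genes. In aged CA these were Nfkbie (4.45-fold), Tnfaip2 (3.43-fold), Icam1 (2.76-fold), Tnfaip3 (2.76-fold) and Birc3 (2.61-fold), in 264 cells against 4549, and in young CA Tnf (4.70-fold, 3.52 to 6.18), Ier3 (3.15-fold) and Cd83 (2.67-fold) were among the 5, in 181 cells against 8501. The other 2 genes there rest on 11 and 13 UMIs.

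Across 16 units of class and library with at least 50 cells, the genes whose log2(CPM + 1) followed Socs3 most closely among 10274 genes were Map3k8 (r = 0.95), Nfkbia (r = 0.95) and Bcl6 (r = 0.94). For Bcl3 they were Ier3 (r = 0.96), Zcrb1 (r = 0.96) and Prdx5 (r = 0.95), and for Il10ra they were Gdi2 (r = 0.99), Runx1 (r = 0.98) and Derl1 (r = 0.98). The units share libraries and depth, 4 of them are neurons, and the values are a description.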
